A study of Mus musculus with 31 samples.

Results

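Colon libraries from mice whose intestinal epithelial cells had lost both TAK1 and TRADD (DHO, the label's name for the double deletion, 10 libraries) were compared with libraries from mice with both genes intact (WT, 11 libraries) across all genes. These are 21 of the 31 libraries of the series. The other 10 are from mice with epithelial loss of TAK1 alone (HO) and serve to show which differences from WT the loss of TRADD did not remove. All mice of all 3 groups carried the D138N allele of Ripk1 on both chromosomes, which makes RIPK1 inactive as a kinase, so "intact" refers to Tak1 and Tradd only. WT mice carried floxed Tak1 alleles without epithelial deletion, HO mice were TAK1 IEC-KO, and DHO mice were TAK1 IEC-KO and Tradd IEC-KO. Colon tissue was taken on day 7 after the deletion was induced, and the question the study states for it is the role of TRADD in the colitis of TAK1 IEC-KO mice. The labels give neither the Cre driver nor the inducing agent, nor the age of the mice, nor whether each library is a separate animal, so p-values measure the spread between libraries. The tissue is bulk colon, in which fewer cells of a type and less RNA per cell cannot be told apart.

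TAK1, encoded by Map3k7, is the kinase through which TNF receptors, interleukin-1 receptors and Toll-like receptors switch on NF-κB and MAP kinases. TRADD is the adaptor that TNFR1 recruits first. It brings in RIPK1 and the ubiquitin ligases of the survival complex, and it can also bring FADD and caspase-8 into a death-inducing complex when TAK1 or NF-κB signalling fails. Intestinal epithelium without TAK1 is known to die in a TNF-dependent manner and to leave the mucosa inflamed.

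Relative depth, read from the size of the steps between low values, was 0.840 to 1.02 in DHO, 0.798 to 1.05 in HO and 0.864 to 1.03 in WT, on a scale where the first WT library is 1. The summed level of 16 epithelial marker genes, given as the mean of log2(FPKM + 0.5), ran from 7.35 to 8.70 in DHO, 0.10 to 8.16 in HO and 7.94 to 8.29 in WT, so all 10 DHO libraries held epithelium. HO library 2 stood apart from its group with a WT-like epithelial level. DHO libraries 8 and 9 had neutrophil marker scores of 6.07 and 4.06, against −0.084 to 1.09 in the other 8 DHO libraries and −0.24 to 0.22 in WT. Expression of the predicted transcript Gm15564 (over 1 FPKM or not) divided the 31 libraries of all groups into a first set, with DHO 1 to 6, HO 1 to 5 and WT 1 to 6, and a second set with the rest; the labels name no batch. A second division ran through WT alone. The clock output gene Dbp was at 1.08 to 2.20 FPKM in WT 1, 2, 3 and 7 and at 51.4 to 87.9 FPKM in the other 7 WT libraries, against 0.355 to 2.87 FPKM in DHO and 0.905 to 4.21 FPKM in HO. The labels give no time of collection, and results are therefore also given against the 4 WT libraries with low Dbp, a comparison chosen after the values were seen.

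The targeted genes were checked first. Tradd had 1.36, 2.86 and 3.89 FPKM in DHO (the lowest, the median and the highest library, as in all such triplets here), 12.4, 21 and 59.2 FPKM in HO and 45.9, 89.1 and 97.5 FPKM in WT. All DHO libraries lay below all HO and WT libraries, and Tradd was lower in DHO than in WT by 4.47 on the log2(FPKM + 0.5) scale, on which all fold changes here are given (log2 fold change −4.47 ± 0.223 SE, adjusted p = 3.9e-15, limma with Benjamini-Hochberg adjustment over 12812 genes). It was the most strongly lowered of the genes tested and lies on chromosome 8 at 105258575 to 105264594 (GRCm38). Map3k7 had 8.42, 10.4 and 16.7 FPKM in DHO, 11.6, 13.6 and 16.9 FPKM in HO and 8.29, 10.4 and 13.6 FPKM in WT (0.08 ± 0.103, adjusted p = 0.611), a level over the whole gene and all cells of the tissue that does not measure the epithelial deletion. Ripk1 had 3.1, 3.85 and 5.42 FPKM in DHO and 3.1, 3.31 and 3.76 FPKM in WT (0.19 ± 0.0782, adjusted p = 0.0788). B3gnt9, a glycosyltransferase gene that lies 3.3 kb from Tradd, rose in DHO, to 6.07, 14.1 and 20.5 FPKM, against 3.21, 6.66 and 12.1 FPKM in HO and 1.97, 3.03 and 3.98 FPKM in WT (1.84 ± 0.213, adjusted p = 2.33e-06). Every DHO library exceeded every WT library for it. Within 1 Mb of Tradd, 11 of 57 genes tested differed between DHO and WT (19.3%), Tradd among them, against 21.2% of all genes tested.

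DHO colon differed from WT colon in 2719 of 12812 genes tested (21.2%) at an adjusted p under 0.05. Of these, 1604 were higher in DHO (12.5% of genes tested) and 1115 lower (8.7%), and changes of at least 2-fold were found for 285 higher and 177 lower genes. Under scaling of libraries by the median ratio of their genes the split turned to 1384 higher and 1467 lower, 48.5% higher in place of 59.0%, with the median over all genes at −0.03 in place of 0.02. HO differed from WT in 9148 genes (71.4%; 33% higher and 38.4% lower), and DHO from HO in 8805 (68.7%; 39% higher and 29.7% lower). DHO and HO were set against the same WT libraries. Of the DHO differences from WT, 1703 were in genes that also differed between HO and WT in the same direction (874 higher, the rest lower), and in 535 of these the DHO change was at least 0.75 of the HO change. Another 285 went in opposite directions, and 731 were in genes with no HO difference called. Of the genes called between HO and WT, 7160 were not called between DHO and WT, and 6333 of those differed between DHO and HO.

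These counts depended on which libraries were kept. Without DHO 8 and 9, 1306 genes differed from WT (10.2%, with 6.18% higher and 4.01% lower). With HO left out of that fit as well, 2042 genes differed, against 2669 with all DHO and WT libraries alone. Within the first set, DHO and WT alone gave 201 genes (1.57%; 1.06% higher and 0.507% lower), and within the second set, which holds DHO 7 to 10, they gave 5030 (39.3%; 21.2% higher and 18.1% lower). With the division as a term 4550 genes were called (35.5%; 19.2% higher and 16.3% lower). Against the 4 WT libraries with low Dbp, 19 genes were called (0.148%), 10 higher (0.0781%) and 9 lower (0.0702%), all among the 2719. With the log2 Dbp level of each library as a covariate 21 were called (0.164%), 13 higher (0.101%) and 8 lower (0.0624%). The first of these 2 fits keeps 4 of the 11 WT libraries, and in the second Dbp overlaps with genotype. Both can therefore miss differences that remain, and a lost call does not show a lost difference. For the lists described below, the interferon-γ median was 1.61 against the 4 libraries and 1.63 against all WT. The proliferation median was 0.24 and 0.87. The genes named here that passed with those 4 WT libraries were Tradd and Ccl20, Hbp1 and, on the higher side, Ccl8, B3gnt9, Ly6a, Slpi, Gzma, Psmb9 and Gzmb. All other calls below hold against the 11 WT libraries together.

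**Figure D1:**
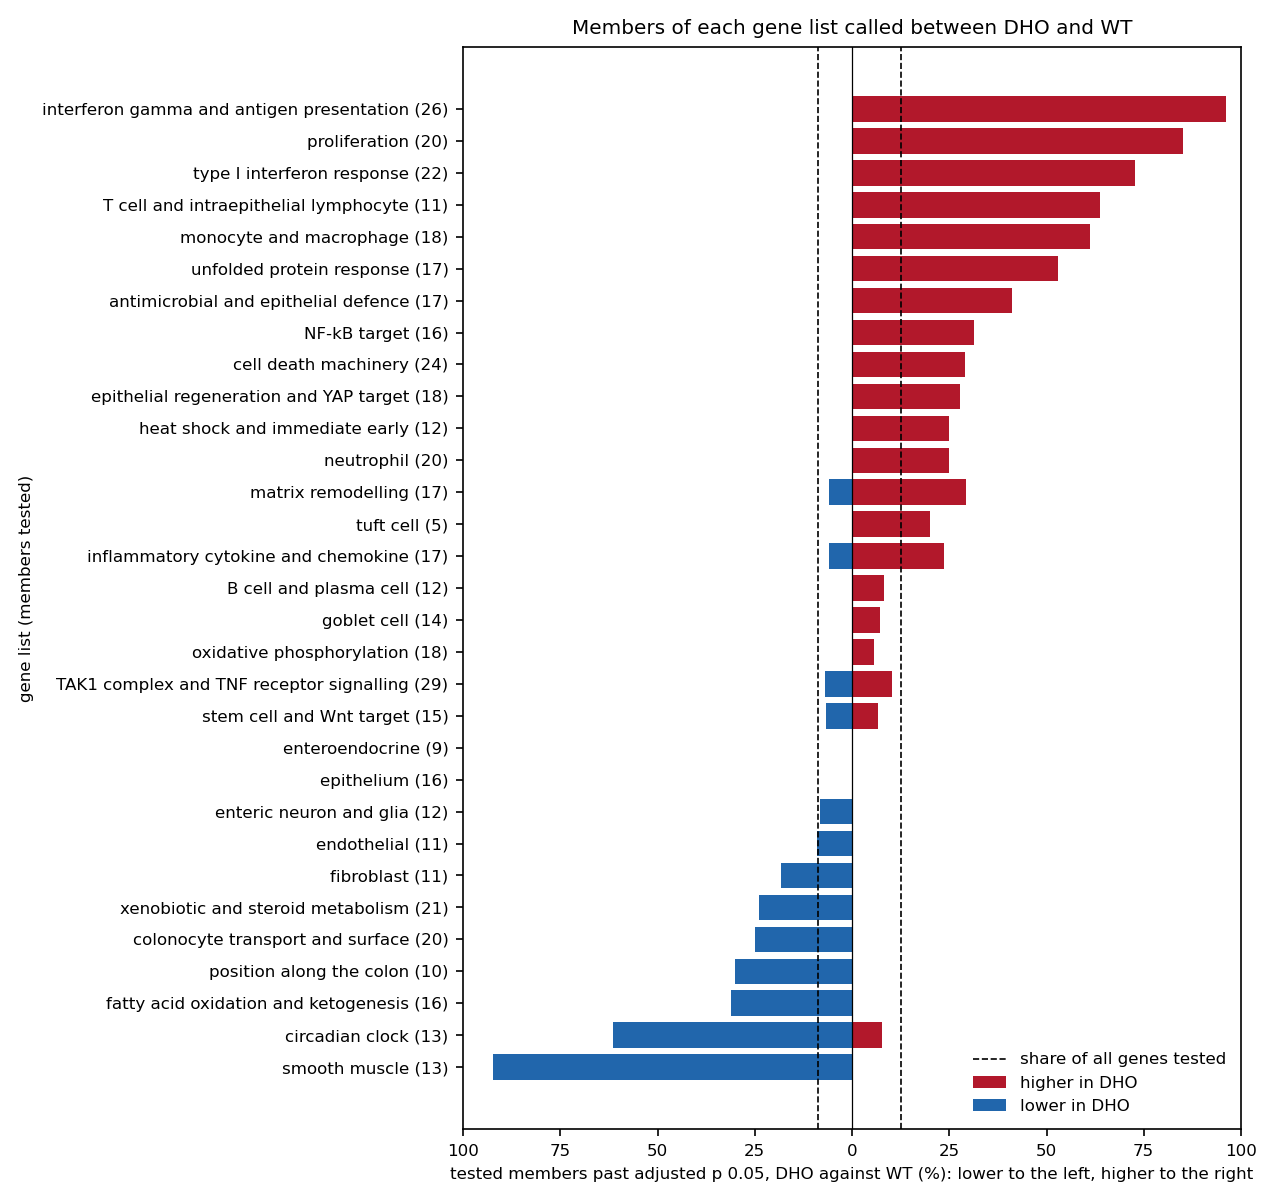
Share of tested members called in DHO against WT (adjusted p under 0.05, limma), for lists with 5 or more tested members; bars to the right count members higher in DHO and bars to the left members lower in DHO, in percent of members tested, and dashed lines mark the shares over all 12812 genes (12.5% and 8.7%). Interferon-γ and antigen-presentation genes and proliferation genes reach furthest right, smooth muscle and clock genes furthest left.

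Genes induced by interferon-γ, with the machinery of antigen presentation, were higher in DHO nearly throughout. Of 26 tested members of that list, 25 rose and none fell, against 12.5% of all genes tested that rose, and the list's median log2 fold change was 1.63, against 0.02 over all genes. Interferon-γ from lymphocytes acts on promoters through the GAS element and, by way of the factor IRF1, through the ISRE. Its target genes include the immunity-related GTPases and guanylate-binding proteins that attack intracellular pathogens, the immunoproteasome, the TAP peptide transporter and the MHC. The score of the list, the mean log2(FPKM + 0.5) of its members, was 4.0 to 6.96 in DHO (median 4.64), 4.64 to 6.56 in HO and 3.12 to 3.65 in WT, with no overlap between DHO and WT. The list is one of those chosen with earlier results of these data known.

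The 300 bases around the starts of these genes were searched for both elements on both strands. The GAS element was read as TTCNNNGAA and the ISRE core as GAAA followed after any 2 bases by GAAA. RefSeq promoter windows (GRCm38.p6, 250 bases before to 50 after a start) were matched for 16 of the 26 genes, in 18 windows. A GAS element was in 4 of the 18 (22.2%), against 8.3% of 32851 windows of the same length over all genes. The ISRE core was in 5 (27.8%), against 3.44%. The list was chosen as interferon-γ-induced and antigen-presentation genes, so these shares describe that choice. They do not test what raised the genes in DHO. The 4 windows with a GAS element are shown, all of genes on the plus strand, with the matches in capitals. In Gbp7 and Igtp an ISRE core lies beside the GAS element without overlap; a match describes letters and not a bound site.
Gbp7 (chr3:142530086-142530385): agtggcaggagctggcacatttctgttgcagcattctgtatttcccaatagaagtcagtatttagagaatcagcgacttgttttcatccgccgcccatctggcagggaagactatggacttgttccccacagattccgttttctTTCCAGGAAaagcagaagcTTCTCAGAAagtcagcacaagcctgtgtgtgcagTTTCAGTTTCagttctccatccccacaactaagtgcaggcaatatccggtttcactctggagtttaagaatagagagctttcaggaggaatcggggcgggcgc
Irf1 (chr11:53769764-53770063): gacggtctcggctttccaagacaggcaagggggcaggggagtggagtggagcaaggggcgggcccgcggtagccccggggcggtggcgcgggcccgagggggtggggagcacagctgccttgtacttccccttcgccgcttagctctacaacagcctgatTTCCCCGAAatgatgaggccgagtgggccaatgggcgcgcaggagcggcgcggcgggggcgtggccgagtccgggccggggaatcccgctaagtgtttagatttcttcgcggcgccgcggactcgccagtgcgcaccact
Igtp (chr11:58199306-58199605): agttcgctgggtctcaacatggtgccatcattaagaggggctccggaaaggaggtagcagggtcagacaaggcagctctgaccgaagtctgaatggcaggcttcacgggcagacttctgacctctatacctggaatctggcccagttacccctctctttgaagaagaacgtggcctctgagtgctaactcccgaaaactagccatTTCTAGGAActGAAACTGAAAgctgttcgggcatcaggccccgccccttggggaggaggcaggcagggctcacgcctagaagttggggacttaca
Psmb8 (chr17:34197945-34198244): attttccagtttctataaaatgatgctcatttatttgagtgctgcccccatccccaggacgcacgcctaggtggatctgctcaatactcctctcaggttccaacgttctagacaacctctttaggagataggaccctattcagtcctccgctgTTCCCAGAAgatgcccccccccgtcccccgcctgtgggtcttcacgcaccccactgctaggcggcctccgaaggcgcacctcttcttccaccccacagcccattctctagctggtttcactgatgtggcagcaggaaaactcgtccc

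The GTPase Igtp, whose window holds both elements, had 17.8, 30.6 and 289 FPKM in DHO, 26.1, 46.3 and 117 FPKM in HO and 6.38, 8.4 and 12.1 FPKM in WT (2.46 ± 0.401, adjusted p = 0.000238). Gbp7, with a pair of GAS elements and an ISRE core, had 2.27, 4.57 and 44.4 FPKM in DHO, 3.87, 9.12 and 26.9 FPKM in HO and 1.12, 1.96 and 4.29 FPKM in WT (1.46 ± 0.476, adjusted p = 0.0296). Its groups overlapped and its call was lost without DHO 8 and 9 (adjusted p = 0.166), whereas for Igtp every DHO library lay above every WT library. Irf1 had 54.8, 67.3 and 159 FPKM in DHO, 37.8, 52 and 127 FPKM in HO and 33.8, 44 and 53.9 FPKM in WT (0.88 ± 0.197, adjusted p = 0.00334). All its DHO libraries were again above the highest WT library. Ifi47 and Iigp1, of the same GTPase family as Igtp, rose by 2.72 ± 0.425 and 3.11 ± 0.613 on the log2 scale. Ido1, which degrades tryptophan, had the largest change of the list (3.73 ± 0.636, adjusted p = 0.000381), with 3.26, 12.9 and 368 FPKM in DHO, 1.22, 2 and 9.91 FPKM in HO and 0.63, 1.49 and 4.3 FPKM in WT; its log2 fold change was 2.07 in the first set and 6.16 in the second. The chemokine gene Cxcl9, which attracts CXCR3-bearing T cells, had 0.54, 2.37 and 344 FPKM in DHO and 0.138, 0.446 and 0.633 FPKM in WT (2.96 ± 0.794, adjusted p = 0.0101). Both were far higher in some DHO libraries than in others, and their lowest DHO libraries lay within the WT range. Il18bp, a secreted inhibitor of interleukin-18, had 2.25, 5.71 and 39 FPKM in DHO, 4.87, 10.6 and 21.1 FPKM in HO and 0.615, 0.879 and 1.52 FPKM in WT (2.49 ± 0.329, adjusted p = 1.49e-05).

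The antigen-presentation arm of the list rose as well. Psmb9, an immunoproteasome subunit, had 33.5, 68.3 and 132 FPKM in DHO, 31.1, 45.2 and 70.2 FPKM in HO and 13.5, 19.4 and 33.5 FPKM in WT (1.65 ± 0.194, adjusted p = 3.17e-06). Its partner Psmb8 had 63.4, 135 and 276 FPKM in DHO, 93, 143 and 211 FPKM in HO and 27.2, 48.6 and 71.7 FPKM in WT (1.5 ± 0.21, adjusted p = 3.32e-05). The third subunit, Psmb10, had 68, 133 and 193 FPKM in DHO, 45.3, 70.8 and 96.9 FPKM in HO and 47.5, 64.1 and 104 FPKM in WT (0.88 ± 0.168, adjusted p = 0.00106). So the proteasome subunits that interferon-γ exchanges were higher in DHO, with overlapping ranges for Psmb8 and Psmb10. Tap1, a chain of the peptide transporter, had 20.1, 30.5 and 116 FPKM in DHO, 28.1, 64.4 and 103 FPKM in HO and 7.64, 10.2 and 12.8 FPKM in WT (1.97 ± 0.275, adjusted p = 3.25e-05). For MHC class II, H2-DMb1, a chain of the peptide-loading protein H2-M, had 20.6, 27.4 and 111 FPKM in DHO, 12.5, 18.7 and 46.9 FPKM in HO and 7.05, 9.65 and 12.8 FPKM in WT (1.94 ± 0.254, adjusted p = 1.49e-05). Neither gene's DHO libraries overlapped WT. The class II chain H2-Aa had 143, 321 and 864 FPKM in DHO and 76.2, 130 and 189 FPKM in WT, the invariant chain gene Cd74 had 324, 579 and 1848 FPKM in DHO and 156, 249 and 357 FPKM in WT, and their class II transactivator Ciita rose by 1.19 (adjusted p = 0.00405). The transactivator of class I genes, Nlrc5, had 1.04, 1.6 and 11.3 FPKM in DHO and 0.181, 0.324 and 0.64 FPKM in WT (1.87 ± 0.312, adjusted p = 0.000302). Tapbp, the tapasin gene, was the member that did not pass (adjusted p = 0.0504).

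In 9 of the 26 members every DHO library exceeded every WT library, a separation that 60 of all genes tested showed (0.468%). With DHO 8 and 9 left out, 23 members were called, at a median of 1.29. With DHO and WT alone in the fit, the first set gave 19 called members (12 with HO in the fit) at a median of 1.03, and the second set 26 at a median of 2.50; the difference between the sets was itself called for 15 members. Against the 4 WT libraries with low Dbp the list's median was 1.61 and 1 member was called, Psmb9 (1.37, adjusted p = 0.0363). HO was also above WT, with 22 members higher (against 33% of all genes tested) and a median of 1.32. DHO against HO had 9 members higher, 3 lower and a median of −0.01. Over all genes tested, 39% were higher and 29.7% lower in DHO than in HO. DHO 7, 8 and 9 had the highest scores (6.86, 6.96 and 6.92); the T-cell score, also the mean over its list, was 1.51 in DHO 7 and 2.95 and 3.02 in DHO 8 and 9, and the part of lymphocyte number in the interferon genes was not tested.

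Genes of the type I interferon response rose with them in 16 of 22 tested members, with none lower and a median log2 fold change of 1.05. Among all genes tested, 12.5% rose and 8.7% fell. Zbp1, a sensor of Z-form nucleic acids that engages RIPK3, had 16.5, 37.9 and 181 FPKM in DHO, 15.4, 26.1 and 76 FPKM in HO and 7.67, 9.85 and 15.6 FPKM in WT (2.13 ± 0.329, adjusted p = 0.000142). No DHO library overlapped WT. Oas3, an antiviral oligoadenylate synthetase, had 1.54, 4.37 and 19.8 FPKM in DHO and 0.134, 0.712 and 2.34 FPKM in WT (2.11 ± 0.367, adjusted p = 0.00045), and Oas2 rose by 1.65 ± 0.302. Bst2, which tethers budding viruses, had 34.7, 55.5 and 126 FPKM in DHO and 18.6, 24.5 and 50.4 FPKM in WT (1.14 ± 0.225, adjusted p = 0.00143). The ranges of Oas3 and Bst2 overlapped. Without DHO 8 and 9, 9 members were called and the median was 0.79; the first set called 5 with DHO and WT alone in the fit and 2 with HO in it, and the low-Dbp comparison called none at a median of 1.10.

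**Figure D2:**
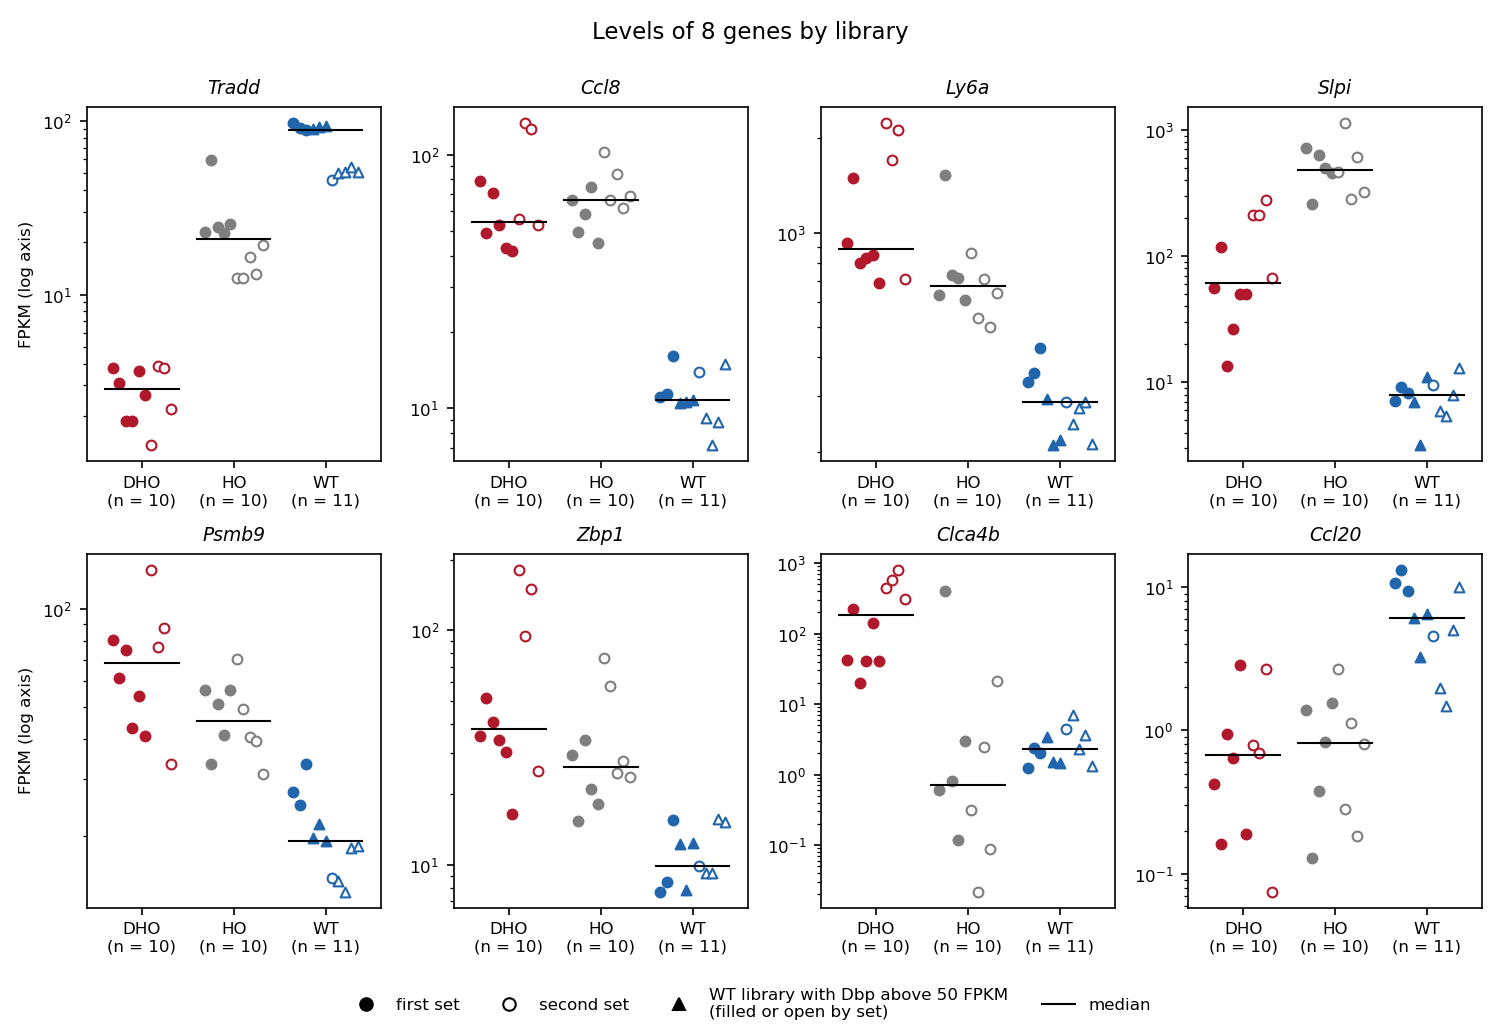
Levels of 8 genes in FPKM on a log axis, for DHO, HO and WT from left to right; each symbol is a library (filled for the first set, open for the second, triangles for WT libraries with Dbp above 50 FPKM) and each line a group median. Ccl8, Ly6a, Zbp1, Slpi and Clca4b lie above the highest WT library in all 10 DHO libraries, and Tradd lies below the lowest.

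T-cell and intraepithelial-lymphocyte markers were higher as well, in 7 of 11 tested members with none lower (median log2 fold change 0.81). The shares of all genes tested were 12.5% higher and 8.7% lower. Of the 18 listed genes, 7 were too low to be tested. The score ran from 0.933 to 3.02 in DHO and from 0.069 to 0.855 in WT, without overlap. The granzyme genes, effector proteases of cytotoxic lymphocytes, had the larger changes. Gzma had 2.41, 5.28 and 19.3 FPKM in DHO, 2.83, 10.7 and 26.1 FPKM in HO and 0.199, 0.39 and 2.53 FPKM in WT (2.61 ± 0.338, adjusted p = 1.49e-05). Gzmb had 0.884, 2.24 and 9.77 FPKM in DHO, 2.18, 4.25 and 12.1 FPKM in HO and 0.0992, 0.308 and 0.819 FPKM in WT (1.80 ± 0.287, adjusted p = 0.000192). Gzmb separated the groups in full, and for Gzma the lowest DHO library lay just under the highest WT library. Nkg7, a cytotoxic granule protein, rose by 1.43 ± 0.269 and Cd7 by 1.32 ± 0.24. Of the T-cell receptor complex, Cd3d was called (0.81, adjusted p = 0.0137) and Cd3e was not (0.77, adjusted p = 0.0666), nor was Cd4 (0.43, adjusted p = 0.145). Leaving out DHO 8 and 9 left 4 called members, and against the WT libraries with low Dbp Gzma (2.52, adjusted p = 0.0264) and Gzmb (2.10, adjusted p = 0.0363) remained past the threshold.

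Among chemokines, Ccl8, which recruits monocytes and T cells, had 41.6, 54.2 and 133 FPKM in DHO, 44.8, 66.3 and 102 FPKM in HO and 7.16, 10.8 and 16 FPKM in WT (2.50 ± 0.185, adjusted p = 1.16e-10). DHO lay with HO and clear of WT in both sets, with log2 fold changes of 2.18 in the first and 2.95 in the second, and against the low-Dbp WT libraries it remained called (2.28, adjusted p = 5.2e-05). The HO log2 fold change was 2.53, so Ccl8 is among the genes that loss of TRADD left where HO had it. Ccl20, the epithelial chemokine for CCR6-bearing lymphocytes and dendritic cells, went the other way. It had 0.0748, 0.669 and 2.86 FPKM in DHO, 0.128, 0.812 and 2.69 FPKM in HO and 1.48, 6.13 and 13.2 FPKM in WT (−2.32 ± 0.359, adjusted p = 0.000142), and it stayed called against the low-Dbp WT libraries (−2.95, adjusted p = 0.00257).

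Antimicrobial and epithelial-defence genes rose in 7 of 17 tested members, against 12.5% of all genes tested, with none lower (median 0.67). Their score was 4.45 to 5.83 in DHO and 3.83 to 4.24 in WT. Slpi, a secreted protease inhibitor with antimicrobial activity, had 13.4, 61.6 and 278 FPKM in DHO, 259, 484 and 1138 FPKM in HO and 3.19, 7.89 and 12.9 FPKM in WT (3.22 ± 0.387, adjusted p = 4.08e-06), so DHO lay between HO and WT. Duoxa2, the maturation factor of the epithelial hydrogen peroxide source, had 22.1, 43.9 and 81.9 FPKM in DHO, 0.143, 2.35 and 214 FPKM in HO and 5.75, 9.8 and 14.6 FPKM in WT (2.08 ± 0.602, adjusted p = 0.0153; 0.0613 without DHO 8 and 9). Its enzyme Duox2 also had every DHO library above every WT library, at 17, 34.5 and 66.7 FPKM in DHO against 8.5, 11.4 and 14.9 FPKM in WT (adjusted p = 0.0534, not called). Saa3, an acute-phase protein, had 1.12, 10.4 and 2131 FPKM in DHO and 0.0947, 1.07 and 13.1 FPKM in WT (2.81 ± 0.909, adjusted p = 0.0282). Lcn2, which starves bacteria of iron, had 4.75, 7.11 and 613 FPKM in DHO, 2918, 5619 and 7880.4 FPKM in HO and 2.28, 4.17 and 7.07 FPKM in WT (1.75 ± 0.568, adjusted p = 0.0284). For each of Saa3 and Lcn2, 5 of the 10 DHO libraries exceeded the highest WT library, and the highest DHO library lay far above the DHO median. Of the list, 3 members were called without DHO 8 and 9, and Slpi was the member called against the low-Dbp WT libraries (3.06, adjusted p = 0.0236).

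Genes tied to epithelial repair were higher in 5 of 18 tested members, against 12.5% of all genes tested. None was lower, and the median was 0.73. Without DHO 8 and 9, 3 were higher and 1 lower, at a median of 0.31. The list score was 5.51 and 5.81 in DHO 8 and 9, 3.49 to 4.08 in the other DHO libraries and 2.99 to 3.85 in WT. Ly6a, the Sca-1 antigen of the regenerating colonic epithelium and also of lymphocytes and endothelium, had 690, 886 and 2244 FPKM in DHO, 500, 675 and 1526 FPKM in HO and 210, 288 and 429 FPKM in WT (2.0 ± 0.21, adjusted p = 3.37e-07). All DHO and all HO libraries exceeded the highest WT library, and the call held against the low-Dbp WT libraries (1.68, adjusted p = 0.0199). Sprr1a, a cornified-envelope precursor made by stressed epithelium, had 4.07, 10.5 and 57.3 FPKM in DHO and 0.696, 1.59 and 8.75 FPKM in WT (2.44 ± 0.516, adjusted p = 0.00225), and the EGF receptor ligand Hbegf rose by 1.44 ± 0.335. Clca4b, of the calcium-activated chloride channel regulator family, had the largest change of any gene tested, with 20.1, 183 and 806 FPKM in DHO, 0.0217, 0.705 and 401 FPKM in HO and 1.24, 2.31 and 6.99 FPKM in WT (5.58 ± 0.857, adjusted p = 0.000136). No DHO library overlapped WT for it. With log2 Dbp as a covariate Clca4b stayed called (5.46, adjusted p = 0.0452), but against the low-Dbp WT libraries it was not called. Retnlb, the goblet-cell antimicrobial resistin-like molecule β, had 0.583, 17.9 and 51.6 FPKM in DHO, 0, 0.0934 and 283 FPKM in HO and 0.113, 0.987 and 13.6 FPKM in WT (3.23 ± 0.843, adjusted p = 0.00863), and was the 1 of 14 goblet-cell genes to be called.

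Of 24 tested genes of the cell-death machinery, 7 rose in DHO, against 12.5% of all genes tested. None fell, against 8.7%, and the median was 0.21. The 3 members with the largest changes, Zbp1, Ripk3 and Mlkl, belong to the necroptosis branch. Ripk3, the kinase that phosphorylates MLKL, had 16.3, 23.3 and 64.1 FPKM in DHO, 29, 33.7 and 76.2 FPKM in HO and 8.2, 9.88 and 12.8 FPKM in WT (1.54 ± 0.213, adjusted p = 3.1e-05). Mlkl, which permeabilises the membrane, had 9.53, 12.8 and 38.2 FPKM in DHO, 7.77, 11.6 and 16.3 FPKM in HO and 4.97, 6.54 and 7.91 FPKM in WT (1.28 ± 0.212, adjusted p = 0.000295). With Zbp1 above, all 3 genes had every DHO library over every WT library. Smaller rises were found in Casp8, the initiator caspase recruited by TRADD and FADD, which had 35.3, 45.5 and 86.5 FPKM in DHO and 26.5, 32.9 and 38.5 FPKM in WT (0.59 ± 0.138, adjusted p = 0.00452), in the mitochondrial pore former Bak1 (0.66 ± 0.13, adjusted p = 0.00135), in the inflammatory caspase gene Casp4 (0.65 ± 0.164, adjusted p = 0.00746) and in the death receptor gene Tnfrsf10b (0.30, adjusted p = 0.0472). Fadd was not called (0.16, adjusted p = 0.228). These are transcript levels and say nothing of enzyme activity. When DHO 8 and 9 were left out 6 members were called; against the low-Dbp WT libraries none was, at a median of 0.14.

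Of 29 tested genes of the TAK1 complex and the TNF receptor pathway itself, 3 were higher and 2 lower, near the shares of all genes tested (12.5% and 8.7%), with a median of 0.10. Tnfrsf1b, the TNFR2 gene, had 8.06, 12.1 and 58.3 FPKM in DHO, 41.7, 86.3 and 145 FPKM in HO and 3.72, 5.19 and 7.32 FPKM in WT (1.42 ± 0.265, adjusted p = 0.000828), with no overlap of DHO and WT. Tnfrsf1a, the TNFR1 gene, had 45.1, 54.4 and 128 FPKM in DHO, 131, 158 and 209 FPKM in HO and 38.3, 45.7 and 56.5 FPKM in WT (0.50 ± 0.149, adjusted p = 0.0187; 0.0972 without DHO 8 and 9). Ikbkb, the catalytic IκB kinase β, was higher by 0.30 ± 0.0998 (adjusted p = 0.0338). The lower members were Tradd and Tnip1, a ubiquitin-binding partner of A20, which had 20.9, 29.4 and 52.4 FPKM in DHO, 58.1, 94.1 and 109 FPKM in HO and 32.1, 40.6 and 45 FPKM in WT (−0.40 ± 0.131, adjusted p = 0.029). Of 16 tested NF-κB target genes, 5 rose and none fell (median 0.53; 2 called without DHO 8 and 9). Nfkbiz, an atypical IκB, had 13.9, 17.6 and 48.6 FPKM in DHO and 6.62, 9.91 and 13.6 FPKM in WT (1.10 ± 0.198, adjusted p = 0.000607). The feedback inhibitor Nfkbia had 28.7, 33.8 and 148 FPKM in DHO, 234, 344 and 495 FPKM in HO and 33.5, 43.5 and 58.8 FPKM in WT (0.00, adjusted p = 0.999), and Tnfaip3, the A20 gene, was not called either (0.12, adjusted p = 0.77).

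Neutrophil, monocyte and inflammatory cytokine genes were highest in DHO 8 and 9, and fewer of them were called without those 2 libraries. Over all genes tested, 12.5% were higher and 8.7% lower with all libraries, and 6.18% and 4.01% without those 2. Neutrophil markers were higher in 5 of 20 tested members, none lower, with a median of 1.26 that was 0.30 with 1 member called without those libraries; the first set alone called none (median 0.13). In HO the neutrophil score was 6.48 to 8.72. S100a8, a calprotectin chain, had 0, 2.75 and 1782 FPKM in DHO and 0.397, 1.09 and 5.51 FPKM in WT and was not called (2.24, adjusted p = 0.0897). Monocyte and macrophage markers were higher in 11 of 18 tested members (median 0.75), and in 3 without DHO 8 and 9 (median 0.47). Fcgr1, a high-affinity IgG receptor, had 1.36, 2.09 and 26.1 FPKM in DHO, 29, 34.2 and 70.3 FPKM in HO and 0.595, 0.905 and 1.15 FPKM in WT (1.53 ± 0.335, adjusted p = 0.00282), and its DHO and WT libraries did not overlap. Of 17 inflammatory cytokines and chemokines, 4 were higher and 1 (Ccl20) lower, with a median of 1.32; without DHO 8 and 9 the median was 0.28. Il1b had 1.14, 2.73 and 435 FPKM in DHO, 220, 336 and 589 FPKM in HO and 0.175, 0.49 and 2.29 FPKM in WT (2.73 ± 0.723, adjusted p = 0.00943). Tnf had 0.0928, 0.762 and 24.7 FPKM in DHO, 9.64, 17.9 and 56.7 FPKM in HO and 0.0912, 0.591 and 1.17 FPKM in WT (1.08, adjusted p = 0.136), and Il6 had 0, 0.0226 and 149 FPKM in DHO against 0, 0.0263 and 0.178 FPKM in WT (adjusted p = 0.209). The medians of Tnf and Il6 in DHO were near those of WT, and the highest libraries far above them.

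**Figure D3:**
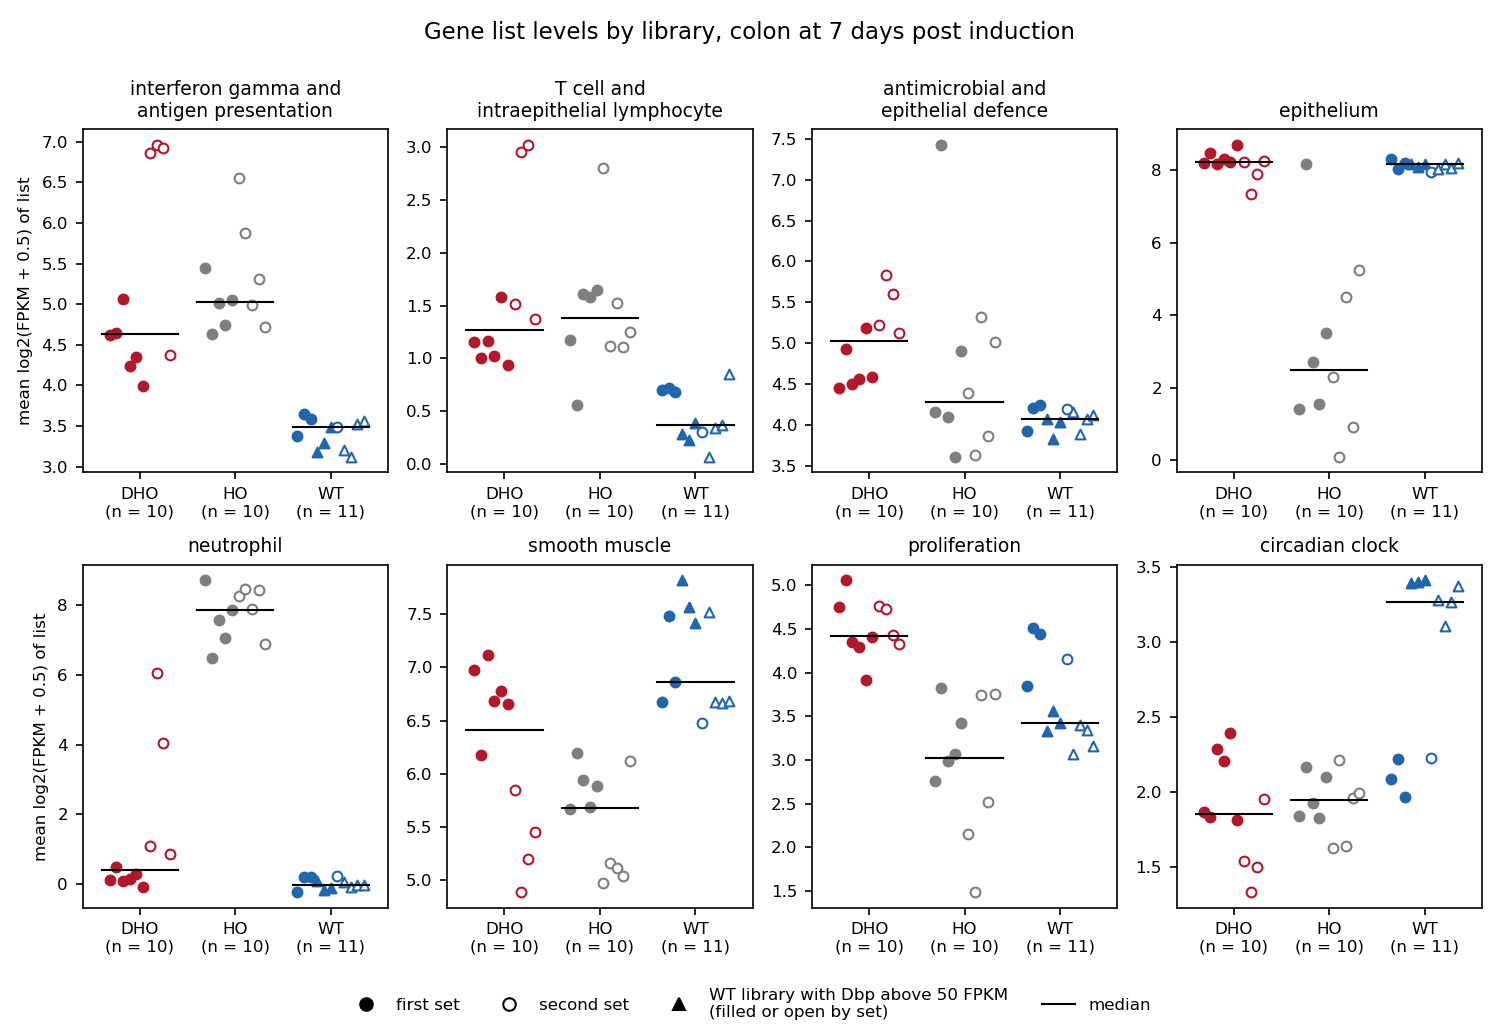
Mean log2(FPKM + 0.5) of the members of 8 lists in each library, for DHO, HO and WT from left to right, with filled symbols for the first set, open for the second, triangles for WT libraries with Dbp above 50 FPKM, and a line at the group median. The interferon-γ, T-cell and antimicrobial lists have all DHO libraries above WT. The neutrophil list has 2 DHO libraries far above the others, and the proliferation and clock lists divide the WT libraries.

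None of 16 epithelial markers was called at an adjusted p under 0.05 between DHO and WT (median 0.09), whereas all 16 were lower in HO than in WT (median −5.22). Epcam had 382, 929 and 1011 FPKM in DHO, 0.646, 14.6 and 543 FPKM in HO and 765, 825 and 1033 FPKM in WT (−0.04, adjusted p = 0.976). Muc2, the secreted mucin of goblet cells, had 29.1, 76.8 and 220 FPKM in DHO, 0.0274, 0.151 and 81.8 FPKM in HO and 34.9, 59.2 and 133 FPKM in WT (0.42, adjusted p = 0.646). Both DHO medians were above the WT medians. Of the 10 DHO libraries, 3 had an epithelial score above the WT range and 2, DHO 8 and 9, below it (7.35 and 7.89, against a lowest WT score of 7.94), and the goblet-cell scores of DHO 8 and 9 were 3.63 and 4.35, against a lowest WT score of 5.44. Enteroendocrine markers gave 0 calls of 9 and stem-cell and Wnt-target genes 1 higher and 1 lower of 15; Lgr5, the crypt-base stem cell receptor, had a log2 fold change of −0.41 (adjusted p = 0.0741).

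Genes of the differentiated absorptive colonocyte were lower in part. Colonocyte transport and surface genes fell in 5 of 20 tested members with none higher (median −0.90, against 8.7% of all genes that fell), and xenobiotic and steroid metabolism genes in 5 of 21 (median −1.01). Cyp2c55, a cytochrome P450 of the colonic surface, had 0.0542, 36.7 and 135 FPKM in DHO, 0, 0.00609 and 20.5 FPKM in HO and 124, 230 and 386 FPKM in WT (−4.01 ± 0.85, adjusted p = 0.0023). Slc26a3, the chloride and bicarbonate exchanger, had 13, 171 and 352 FPKM in DHO, 0, 0.0366 and 14.2 FPKM in HO and 240, 355 and 584 FPKM in WT (−1.62 ± 0.529, adjusted p = 0.0298). The DHO medians lay far above the HO medians, and the DHO ranges overlapped both HO and WT. Slc16a1, the butyrate and lactate transporter MCT1, had 40.3, 65.7 and 93.3 FPKM in DHO and 83.9, 93.8 and 112 FPKM in WT (−0.53 ± 0.124, adjusted p = 0.0042), and Abcb1a, the P-glycoprotein efflux pump, had 4.82, 45.3 and 83.5 FPKM in DHO and 67, 111 and 165 FPKM in WT (−1.73 ± 0.416, adjusted p = 0.00525). Fatty acid oxidation and ketogenesis genes fell in 5 of 16, among them Acadm, a mitochondrial acyl-CoA dehydrogenase (−0.55, adjusted p = 0.00973). Aqp8 (−1.05, adjusted p = 0.205) and Car4 (−0.89, adjusted p = 0.088) were not called. Without DHO 8 and 9, which had the lowest colonocyte scores, 1 colonocyte, 2 xenobiotic and 1 fatty acid oxidation gene were called, and the call of Slc26a3 was lost (adjusted p = 0.167). The first set alone and the low-Dbp comparison called no member of any of these 3 lists, with colonocyte medians of −0.32 and −0.65. The colonocyte score was 5.90 to 6.14 in the WT libraries with low Dbp and 6.15 to 6.57 in the other 7.

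Smooth muscle genes were lower in DHO in 12 of 13 tested members (median −0.94), and HO was lower than the same WT libraries in 12 (median −1.46). Of all genes tested, 8.7% were lower in DHO and 38.4% in HO. Myh11, the smooth muscle myosin heavy chain, had 41.3, 116 and 273 FPKM in DHO, 36.5, 60.8 and 111 FPKM in HO and 142, 190 and 409 FPKM in WT (−1.03 ± 0.285, adjusted p = 0.012; 0.0721 without DHO 8 and 9). Mylk, the myosin light-chain kinase, had 33.5, 44.7 and 78.1 FPKM in DHO and 51.6, 71 and 118 FPKM in WT (−0.73 ± 0.158, adjusted p = 0.00265). The ranges overlapped for both, and Cnn1 was the member not called (adjusted p = 0.0798). Without DHO 8 and 9, 2 members were called. Within the first set none was, at a median of −0.59, and within the second 12 were, at −1.59. Against the low-Dbp WT libraries no member was called, at a median of −0.71. Endothelial, fibroblast and enteric neuron and glia lists had 0 members higher and 1, 2 and 1 lower, of 11, 11 and 12.

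In 5 lists (proliferation, clock, unfolded protein response, haemoglobin, and colonocyte transport and surface genes) the scores of the 4 WT libraries with low Dbp did not overlap those of the other 7. Proliferation genes were higher in DHO in 17 of 20 tested members (median 0.87), lower in HO in 15 (median −0.76), and higher in DHO than in HO in all 20. The matching shares of all genes tested were 12.5%, 38.4% and 39%. The proliferation score was 3.92 to 5.06 in DHO and 1.48 to 3.83 in HO, and it was 3.85 to 4.51 in the 4 WT libraries with low Dbp and 3.07 to 3.56 in the other 7. Aurka, the mitotic kinase, had 9.74, 17.9 and 22.3 FPKM in DHO, 0.953, 4.64 and 11 FPKM in HO and 3.77, 5.76 and 13.4 FPKM in WT (1.20 ± 0.283, adjusted p = 0.00462). Of the WT values of Aurka, those above 6.14 FPKM were all from libraries with low Dbp, and against these 4 libraries the fold change was 0.55 (adjusted p = 0.541). The replication genes Mcm3 (0.91 ± 0.201, adjusted p = 0.00306) and Rrm2 (1.48 ± 0.364, adjusted p = 0.00609) were called against all WT libraries, and Mki67, with 17.1, 30.6 and 39.9 FPKM in DHO and 12.3, 16.8 and 45 FPKM in WT, was not (0.65, adjusted p = 0.0645). Against the low-Dbp WT libraries the list had a median of 0.24 and no member called.

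Clock genes were lower in 8 of 13 tested members and higher in 1 (median −1.10), and in HO lower in 9. Among all genes tested, 8.7% were lower and 12.5% higher in DHO than in WT, and 38.4% were lower in HO. Dbp had 0.355, 1.08 and 2.87 FPKM in DHO, 0.905, 2.22 and 4.21 FPKM in HO and 1.08, 57.7 and 87.9 FPKM in WT (−3.51 ± 0.684, adjusted p = 0.0013), so the lowest WT library lay within the DHO range. The repressor gene Nr1d1 had 2.68, 11.1 and 29 FPKM in DHO and 18.7, 63.4 and 83.8 FPKM in WT (−2.11 ± 0.367, adjusted p = 0.00045), and Per3 fell by 1.66 on the log2 scale (adjusted p = 0.000377), whereas Cry1 was higher (0.67 ± 0.145, adjusted p = 0.0028). Against the WT libraries with low Dbp the median was −0.27 with no member called; since those libraries were chosen by a clock gene, that value is a description only. Unfolded protein response genes were higher in 9 of 17 (median 0.40), with the chaperone gene Hspa5 at 223, 343 and 445 FPKM in DHO and 132, 178 and 295 FPKM in WT (0.83 ± 0.182, adjusted p = 0.00298), and had a median of 0.15 with no call against the low-Dbp WT libraries. Their score was 4.74 to 4.96 in the 4 WT libraries with low Dbp and 4.29 to 4.61 in the other 7. Whether time of collection or another difference between animals divides the WT libraries was not tested.

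**Figure D4:**
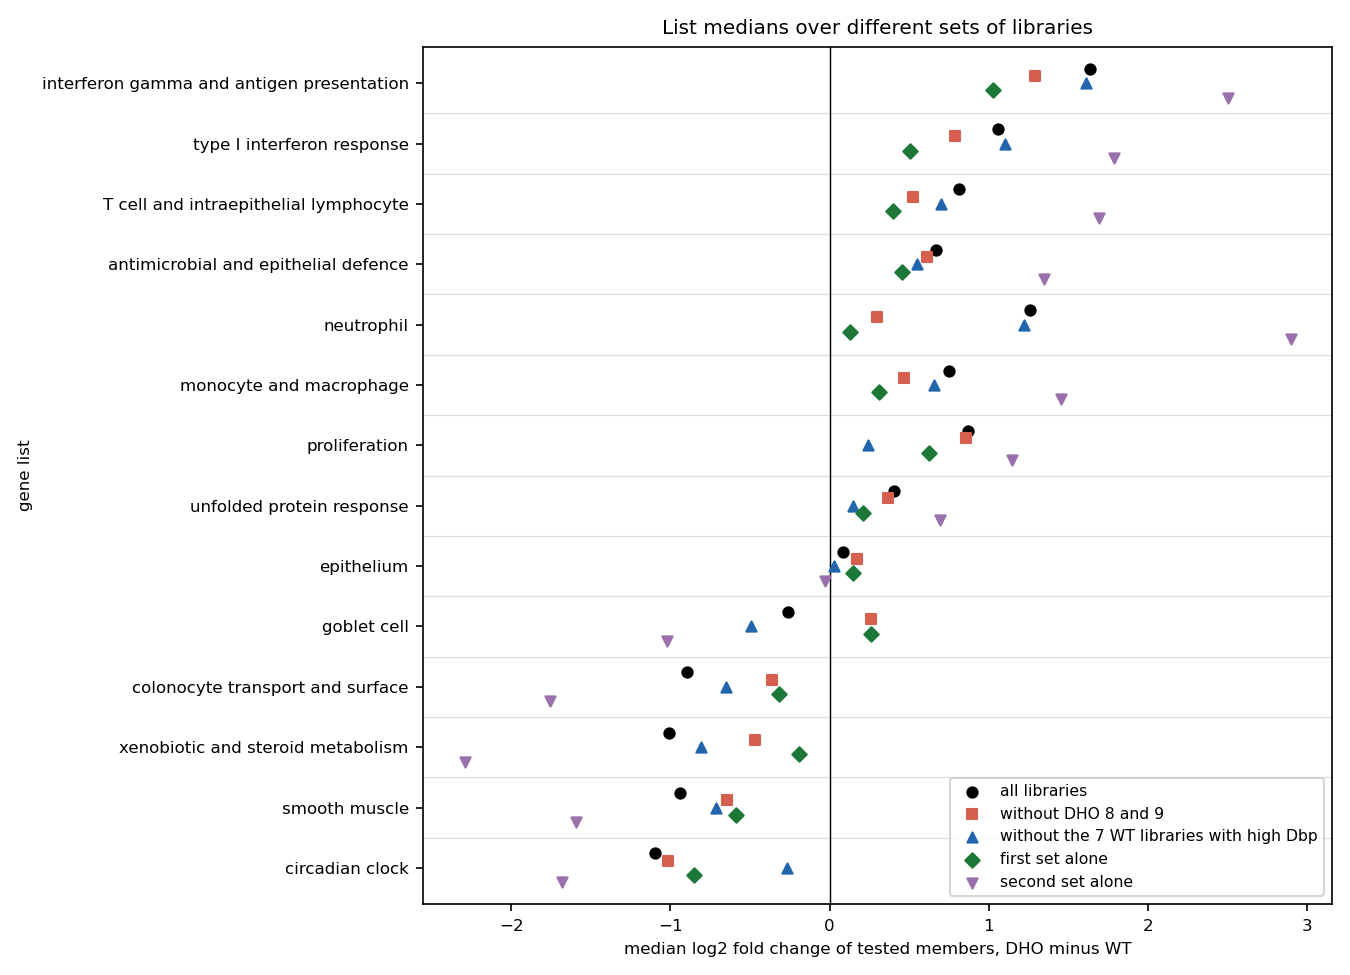
Median log2 fold change (DHO minus WT) of 14 lists over all libraries, without DHO 8 and 9, without the 7 WT libraries with high Dbp, and within the first and the second set with DHO and WT alone. The interferon-γ median stays between 1.03 and 2.50 in all 5 comparisons, the proliferation median is 0.24 against the low-Dbp WT libraries, and the neutrophil median is 0.13 in the first set and 2.90 in the second.

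Other lists showed fewer or scattered differences, beside shares over all genes tested of 12.5% higher and 8.7% lower. Matrix remodelling genes were higher in 5 of 17 and lower in 1 (1 and 1 without DHO 8 and 9), heat shock and immediate early genes higher in 3 of 12, and oxidative phosphorylation and B-cell lists each had 1 member higher, of 18 and 12. Genes whose level varies along the colon were lower in 3 of 10 (median −0.53), and in none without DHO 8 and 9. Of 12 listed mast cell and eosinophil genes, 3 reached the filter and 2 of these were higher. Tuft-cell markers had 1 of 5 higher, adipose and pancreas genes 1 of 3 lower, and haemoglobin genes none of 4. The haemoglobin score was 0.459 to 2.57 in DHO and 2.05 to 3.75 in the 4 WT libraries with low Dbp, and −0.60 to 0.85 in the other 7. Of 4 sex-linked genes none was called, and all libraries lacked Xist (at most 0.0112 FPKM).

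Apart from both WT and HO stood 864 genes, called in DHO against each, 644 higher than both and 220 lower than both. Piga, of glycosylphosphatidylinositol anchor synthesis, had 5.32, 5.85 and 7.11 FPKM in DHO, 1.41, 2 and 3.19 FPKM in HO and 3.21, 3.84 and 5.18 FPKM in WT (0.54 ± 0.098, adjusted p = 0.000672), with every DHO library above the others. Uba7, the activating enzyme for ISG15, had 11.1, 16.2 and 25 FPKM in DHO, 5.91, 8.19 and 12.7 FPKM in HO and 6.32, 9.19 and 12.5 FPKM in WT (0.76, adjusted p = 0.000919). Cma1, the mast cell chymase, had 2.34, 7.93 and 19.2 FPKM in DHO, 0, 0.257 and 1.93 FPKM in HO and 1.51, 2.3 and 5.54 FPKM in WT (1.49 ± 0.287, adjusted p = 0.00116). On the lower side, the transcriptional repressor gene Hbp1 had 7.8, 11.6 and 14.4 FPKM in DHO, 14.3, 21.9 and 26.1 FPKM in HO and 14.4, 17.8 and 23.7 FPKM in WT (−0.60 ± 0.114, adjusted p = 0.00101), and it was called against the low-Dbp WT libraries (−0.81, adjusted p = 0.0264). Among genes that were low in HO and DHO alike, Slc35e3, a predicted sugar transporter, had 1.8, 3.03 and 5.99 FPKM in DHO, 1.86, 3.34 and 5.01 FPKM in HO and 6.18, 7.63 and 9.98 FPKM in WT (−1.08 ± 0.169, adjusted p = 0.000156), every DHO library lying below every WT library, as it did for 11 of all genes tested (0.0859%).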

How the data were processed

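RNA was extracted from colon tissue with TRIzol and sequenced from VAHTS Universal V6 libraries, per the labels' protocols. Reads were processed with fastp, HISAT2 and HTSeq on mm10, per the submitters' processing notes; versions, strand setting, annotation and gene lengths were not given in the sources used here. FPKM values of 27623 genes in 31 libraries were deposited by the authors; they are not counts, so no count model was used. FPKM divides by each library's total, so a gene's value also moves with the most abundant genes, and genes that share reads with a near-identical copy (Clca4b, the Gbp and H2 families, Saa3) are less certain.

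Deposited FPKM values were turned into log2(FPKM + 0.5), which understates the change of low genes. The 12812 genes that reached 1 FPKM in 10 or more libraries were fitted with limma 3.58.1 in R 4.3.3 over DHO, HO and WT together, with a variance trend and robust empirical Bayes. Tests were two-sided with Benjamini-Hochberg adjustment over all genes tested, at a threshold of 0.05. The script was tested on simulated data. No 2 libraries were identical (highest correlation 0.993). Python 3.11.15 with pandas 2.3.3 and matplotlib 3.10.9 read the promoter windows and drew the figures.

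Members and lists were chosen with earlier results of these data known, so list counts are descriptions. Genes were named by rule, as the targeted genes, the 15 largest differences of medians in each direction, up to 4 called members of each list with the smallest p (2 where none was called), and the leading genes shared with HO (10 a direction) or apart from both groups (8 a direction). Other list members, such as Tnf, Il6, Nfkbia, Fadd, Irf1 and Gbp7, and B3gnt9's place beside Tradd, were chosen after their values were seen. Some genes are not reported here. Of all symbols, 26637 had a RefSeq position. Alternatives covered the pseudocount, the filter, scaling, library weights, libraries left out, the Gm15564 division and, added after the values were seen, Dbp.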

Additional observations from a re-analysis of the deposited data

Results flagged for a closer look

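DHO 8 lay far from the other DHO libraries for Tnip1, at 52.4 FPKM, and for the adipose and pancreas score, at 0.282. DHO 7 lay far from the others for Tapbpl, at 64.2 FPKM. These 3 were found among 177 genes and lists examined in DHO, and how many would be found by chance was not tested.

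The DHO minus WT difference was not the same in both sets of the Gm15564 division in 1256 genes (interaction in limma, adjusted p under 0.05; 3863 at an unadjusted p under 0.05). The second set of DHO holds libraries 7 to 10, of which DHO 8 and 9 had the highest neutrophil and cytokine scores in DHO. The cytokine and chemokine score was 6.15 and 4.66 in DHO 8 and 9, and 1.14 and 0.27 in DHO 7 and 10. High Dbp marked WT 4, 5 and 6 in the first set and WT 8, 9, 10 and 11 in the second. A difference between the sets cannot be told apart from these differences between libraries. The values that follow are the second set's log2 fold change minus the first set's. Among interferon-γ and antigen-presentation genes the difference was 4.09 for Ido1, 2.13 for Ifi47, 1.66 for Il18bp and 1.45 for H2-DMb1, and it was 1.43 for Bst2. Of the myeloid markers, Csf3r had 2.87, Fpr2 2.91, Fcgr1 2.01 and Ccr2 1.96. Il1b differed by 5.07 between the sets, Cxcl5 by 4.34 and Ccl7 by 2.7. For NF-κB target genes the value was 2.56 in Bcl2a1b and 2.5 in Icam1. Lcn2 and Ltf, named from the neutrophil list, had 3.2 and 2.67, and the defence gene Nos2 had 3.65. Ripk3 (1.24), Mlkl (1.03), Tnfrsf1b (1.54) and Tnfrsf1a (0.844) also differed between the sets, as did Hbegf (1.85), the matrix protease gene Adamts4 (2.69) and the immediate early gene Egr1 (2.66).

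Among genes lower in DHO, the fall was larger in the second set for Cyp2c55 (−5.45), Sult1a1 (−3.34), Best2 (−2.88), Cela1 (−2.43), Abcb1a (−2.23), Gstm1 (−2.2), Fxyd4 (−2.13), Acaa2 (−1.24), Ehhadh (−1.2), Slc35e3 (−0.902), Acadm (−0.899) and Stmn2 (−0.63). All these were in the direction of the DHO difference from WT. The sets hold 6 and 4 DHO libraries, and what divides them is not in the labels.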

How the results depend on the processing

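Counts are given as all, higher and lower genes in DHO against WT, with 2719, 1604 and 1115 in the main comparison; the cause of each shift was not tested. Without DHO 8 and 9 they were 1306, 792 and 514. With HO left out of that fit as well they were 2042, 1308 and 734. All DHO and WT libraries alone gave 2669, 1629 and 1040. With the Gm15564 division as a term they were 4550, 2458 and 2092. The first set gave 68, 48 and 20 with HO in the fit and 201, 136 and 65 without it; the second set gave 5102, 2701 and 2401 with HO and 5030, 2710 and 2320 without. With log2 Dbp as a covariate they were 21, 13 and 8, and with the 7 high-Dbp WT libraries left out 19, 10 and 9. A filter of 5 FPKM left 647 lower genes. Genes called the same way in HO and DHO against WT (1703) numbered 730 without DHO 8 and 9, 2851 with the division as a term, 52 in the first set, 3427 in the second, 16 with the Dbp covariate and 15 without the high-Dbp WT libraries. Genes where DHO stood apart from both groups (864) numbered 1566 with library weights, 521 without DHO 8 and 9, 1538, 19 and 1399 with the division as a term and in the first and second sets, and 10 and 8 under the Dbp alternatives.

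Leaving out 1 library at a time gave 1847 (without DHO 8) to 3050 (without DHO 3) genes, 1106 to 1760 higher, 720 to 1327 lower, 1092 to 1922 shared with HO and 578 to 981 apart from both. Among called genes and lists with most members called, the sign turned in 4 places. The mast cell and eosinophil median was −0.283 under the 5 FPKM filter. That is the unchanged value of the list's lowest member, since the filter removed higher ones. Tef was 0.12 and Per2 0.29 with the Dbp covariate, and Per2 was 0.21 without the high-Dbp WT libraries. Medians of lists with fewer calls turned as well. Haemoglobin (0.63) was −0.82 with the Dbp covariate and −1.11 without the high-Dbp WT libraries, goblet cell (−0.26) was 0.26 without DHO 8 and 9, and B cell (0.52) was −0.09 with the Dbp covariate and −0.17 in the first set. In the first set NF-κB targets were at −0.05, matrix remodelling at −0.03 and heat shock and immediate early genes at −0.05. Medians within 0.2 of 0 (epithelium, tuft, stem, oxidative phosphorylation, neuron and glia, endothelial) also changed sign under some settings. Of 134 called genes named by rule, 96 were called in the same direction without DHO 8 and 9, and 112 with HO left out as well. In the first set with DHO and WT alone 36 were. The Dbp covariate kept 11 of 133, and leaving out the high-Dbp WT libraries kept 10 of 134. Pseudocounts of 0.1 and 1 each kept 131.

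No paired analysis was possible because the replicate numbers only follow the order of listing. Sex as a term was not run, since all libraries lacked Xist. Depth cannot be given in reads from FPKM, so no counting interval is given; genes under the filter were not tested.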

Other observations

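By chromosome, called genes made up 15.2% of tested genes on X, 18.3% (16) to 24.5% (19) on the autosomes, and none of the 13 mitochondrial and 4 Y-linked genes tested.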
